A study of Ovis aries with 13 samples.

Results

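The enzymes described here release fatty acids from triglyceride or build fatty acids and sterols. They are 7 genes, LPL and ABHD5 of triglyceride hydrolysis and ACLY, ACSS2, ME1, SCD and SQLE of lipid synthesis, and every array probe that carries the name of one of them, or a RefSeq transcript of one, was taken. This gave 10 of the 15008 probes of the array that are no controls, with 2 probes each for LPL, ACSS2 and SQLE. All 10 were well above background on all 13 arrays and none was saturated, so all 10 were among the 10257 probes tested.

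The samples were pieces of the left ventricle of sheep (Ovis aries), 1 array for each labelled animal. The newborn group held 7 lambs labelled postnatal day 1 (4 female, 3 male), which the protocol places on the day of birth, and the fetal group held 6 fetuses of gestational day 142 (2 female, 4 male). In the labels 9 of the 13 animals share 4 numbers within their group under different letters (fetal 1 and 6, fetal 3 and 5, newborn 1 and 7, and newborn 2, 4 and 5). Whether these are siblings or repeat samples of an animal is not said. Fetal 1 and 6 differ in labelled sex, as does newborn 2 from newborn 4 and 5, while the other arrays that share a number have the same sex. If any are repeats, the numbers of animals are smaller than 7 and 6 and the p-values below are too small. Siblings would not be independent animals either, so the p-values could be too small in that case too. No treatment and no allele is named for either group. The design text speaks of a further fetus, of the right ventricle and of the septum, and those were not analysed here. The comparison addressed how the heart's metabolic genes differ between lambs just born and fetuses near term, the subject named in the title of the series.

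Before birth the heart runs mainly on glucose and lactate, and after birth it turns to fatty acids that arrive with milk and from the animal's own fat stores. Lipoprotein lipase sits on the wall of capillaries and frees fatty acids from circulating triglyceride, while triglyceride inside the cell's lipid droplets is opened by adipose triglyceride lipase, which ABHD5 switches on. Synthesis starts from acetyl-CoA made by ACLY and ACSS2 and uses NADPH made by malic enzyme and others. SCD then puts a double bond into saturated fatty acids, and SQLE oxidises squalene on the way to cholesterol.

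The stretches that each probe reads are shown first, because a gene with several probes can be read from different stretches of its transcript. Each is written 5′ to 3′ in the sense of the transcript, with its place in the transcript or source sequence that the files cite. No place in a genome build is printed, because the files list these probes as unmapped. For LPL the 2 probes share 20 bases and for ACSS2 they share 30, shown in capitals, so they are not separate readings of the transcript in full.
LPL, bases 1497 to 1556: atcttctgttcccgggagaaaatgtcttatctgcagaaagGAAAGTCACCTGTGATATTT
LPL, bases 1537 to 1596: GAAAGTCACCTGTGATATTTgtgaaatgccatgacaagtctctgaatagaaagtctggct
ACSS2, bases 668 to 727: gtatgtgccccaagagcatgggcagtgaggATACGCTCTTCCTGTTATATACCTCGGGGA
ACSS2, bases 698 to 757: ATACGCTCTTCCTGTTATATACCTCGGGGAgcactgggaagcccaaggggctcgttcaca

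The probes of ACLY and ME1, the other enzymes of the synthesis route whose calls did not pass, are shown whole, to let a reader place them in the transcript.
ACLY, bases 3246 to 3305: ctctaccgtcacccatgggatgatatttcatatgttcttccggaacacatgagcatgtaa
ME1, bases 1213 to 1272: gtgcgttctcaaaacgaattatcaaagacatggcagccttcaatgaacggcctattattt

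For the 3 genes that were higher in newborn ventricle, a stretch of 30 bases of each probe is shown. The 2 SQLE probes do not overlap. The later of them holds AATAAA, shown in capitals, the letters of the common polyadenylation signal. Searched on the printed strand only, these 6 letters occur in 845 of the 15008 probes (5.63%), and a match of letters does not show that a site is used.
ABHD5, first 30 bases of the probe at bases 1223 to 1282: ctttgcacatgttttctttatgaagctgct
SCD, first 30 bases of the probe at bases 1846 to 1905: attgataaatagggtgagttgaagtgggaa
SQLE, first 30 bases of the probe at bases 1849 to 1908: cgcttctaaagtgggaattcttggaccaag
SQLE, last 30 bases of the probe at bases 2034 to 2093: ctgtgggacatgccAATAAAatgaagaatg

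Every level below is a log2 processed signal from which the 75th percentile of its own array was subtracted, so that a level of 0 equals that percentile. Every change is the mean of the 7 newborn arrays minus the mean of the 6 fetal arrays, with the standard error of the limma fit and a p-value adjusted by Benjamini-Hochberg over the 10257 tested probes. A change passed where that p was under 0.05. Over the whole array 2366 probes passed, which is 23.1% of those tested. Of the tested probes 12% passed as higher and 11.1% as lower in newborn ventricle, and for 6.89% the values of the groups did not overlap at all.

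Of the 10 probes 6 passed, 4 as higher in newborn ventricle (ABHD5, SCD and both SQLE probes) and 2 as lower (both LPL probes). The median change over all tested probes was 0.03. By the brighter probe of each gene, ABHD5, SCD and SQLE rose, LPL fell, and ACLY, ACSS2 and ME1 did not pass. In the same reckoning 145 of 622 named genes passed (23.3%), 86 of them higher and 59 lower. With the background of each spot subtracted by normexp in place of the scanner's own correction, 0 of the 10 probes passed, and 48 of the whole array did. With animals that share a number averaged, 0 of the 10 passed, and 315 of the whole array did. In a piece of tissue, fewer cells of a type and less RNA in each of those cells cannot be told apart.

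**Figure D1:**
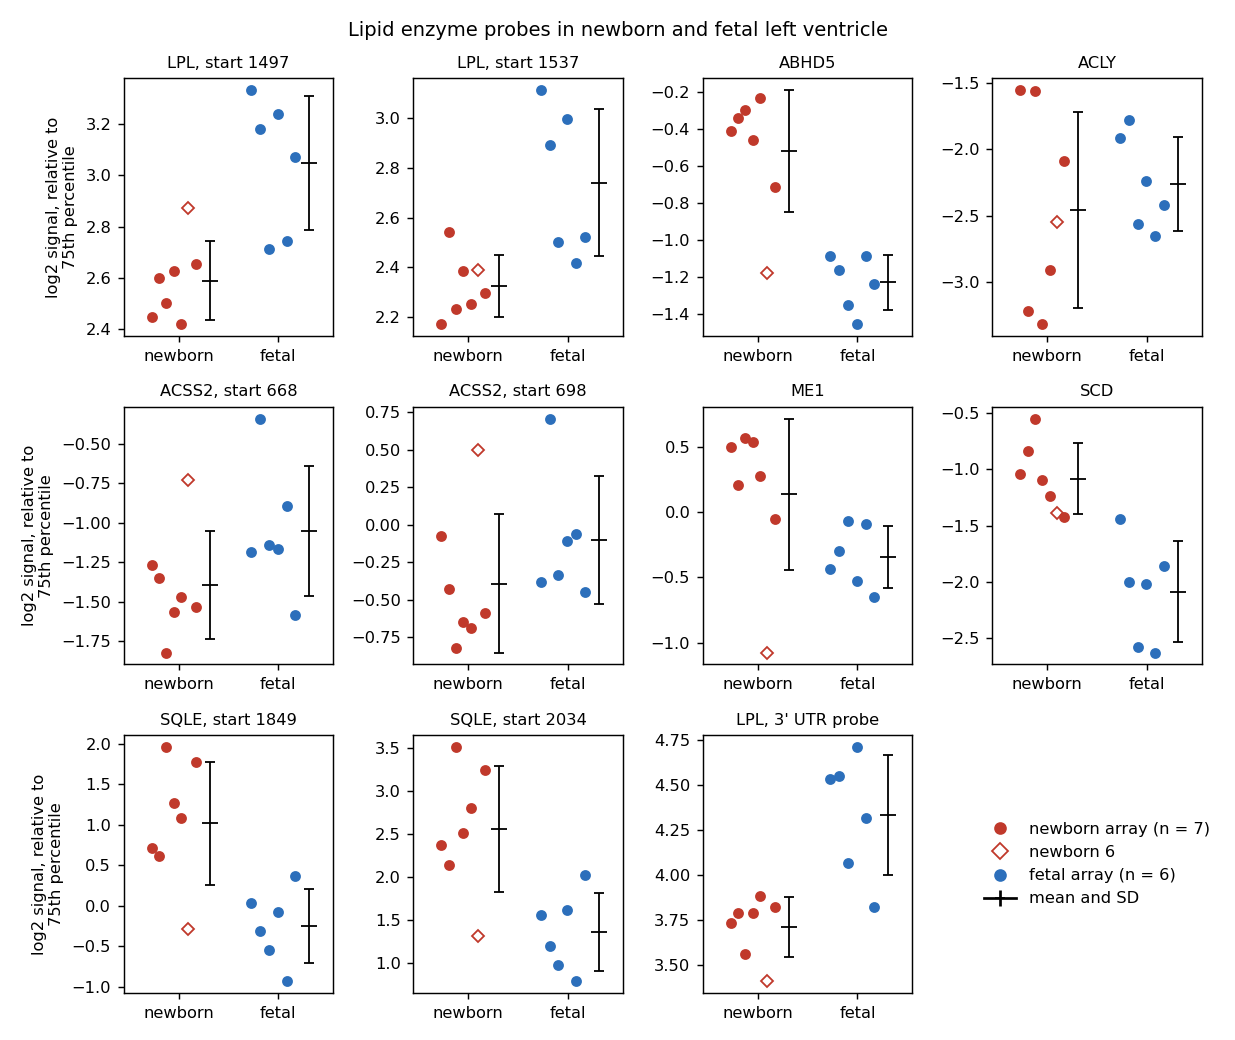
Level of each probe on each array, in log2 units relative to that array's 75th percentile, for 7 newborn arrays (red, newborn 6 as an open diamond) and 6 fetal arrays (blue), with mean and SD in black. Each panel has its own vertical scale. The groups are apart for SCD, while newborn 6 lies among the fetal arrays for ABHD5 and SQLE and below them for ME1.

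LPL, the lipase of the capillary wall, was lower in newborn ventricle on both probes. On the brighter probe (bases 1497 to 1556) the newborn arrays ran between 2.42 and 2.87 with a median of 2.60, against 2.71 to 3.33 with a median of 3.13 on the fetal arrays. All newborn arrays but newborn 6, or 6 of 7, lay below every fetal array. The means were 2.59 ± 0.15 in newborn and 3.05 ± 0.26 in fetal ventricle (SD, n = 7 and n = 6), a change of -0.46 (SE 0.12, limma adjusted p = 0.0154), or 1.38-fold lower. On the brighter probe the 6 fetal arrays fell into a higher set of 4 and a lower pair, fetal 3 and fetal 5. The pair carries the same animal number under different letters. It was not set apart on the other LPL probe, where fetal 6 was at 2.52, next to fetal 3 at 2.50 and fetal 5 at 2.42. Fetal 1, which shares its number with fetal 6, was the highest there at 3.11.

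On the other LPL probe (bases 1537 to 1596) the newborn levels were 2.17 to 2.54 with a median of 2.30, against fetal levels of 2.42 to 3.11 with a median of 2.71. The change was -0.42 (SE 0.13, limma adjusted p = 0.0279), and again 6 of 7 newborn arrays lay below every fetal array, here with newborn 2 as the exception. This call was the least firm of the 6 that passed. It was lost when fetal 1, fetal 2, fetal 4 or newborn 5 was left out (limma adjusted p between 0.0527 and 0.0608), with sex in the model (-0.40, limma adjusted p = 0.0503) and with every probe of the array tested (limma adjusted p = 0.0517).

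A further probe on the array, listed under a database entry in place of a gene name, is described in the files as the 3′ UTR of lipoprotein lipase, and it falls outside the 10. Its newborn levels were 3.41 to 3.88 with a median of 3.79, against fetal levels of 3.82 to 4.71 with a median of 4.43. On 5 of 7 newborn arrays the level was below every fetal level. The change was -0.62 (SE 0.14, limma adjusted p = 0.00737) and stayed between -0.72 and -0.55 with each array left out, passing in 13 of 13 cases. Newborn 6 was the lowest newborn array on this probe and the highest on the brighter of the LPL probes above, so the probes differed in where they put that animal.

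ABHD5, the activator of adipose triglyceride lipase, was higher in newborn ventricle. The newborn levels ran between -1.17 and -0.23 with a median of -0.41, against fetal levels of -1.45 to -1.08 with a median of -1.20. The level on 6 of 7 newborn arrays was above every fetal level, and newborn 6, the lowest, lay inside the fetal range. The means were -0.52 ± 0.33 in newborn and -1.23 ± 0.15 in fetal ventricle (SD, n = 7 and n = 6), a change of 0.71 (SE 0.14, 95% interval 0.40 to 1.02, limma adjusted p = 0.00402), or 1.64-fold higher. With each array left out in turn the change stayed between 0.66 and 0.82 and passed in 13 of 13 cases. In the authors' deposited matrix it was smaller, at 0.42 (SE 0.08, limma adjusted p = 0.00261).

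ACLY, which cleaves citrate from the mitochondria into acetyl-CoA and oxaloacetate, did not pass. Its newborn levels ran between -3.32 and -1.56 with a median of -2.55, against fetal levels of -2.66 to -1.78 with a median of -2.33. The newborn arrays spread past the fetal range on both sides. Newborn 1 and newborn 3 lay above every fetal array at -1.56 and -1.57, and newborn 2, newborn 4 and newborn 5 lay below every fetal array at -3.21, -3.32 and -2.91. Those last 3 animals carry the same animal number under different letters, and the labels do not say what the number stands for. The change was -0.19 with an interval of -0.82 to 0.43 (SE 0.29, limma adjusted p = 0.66), which covers changes in either direction. With normexp on the median background of the array it was -0.008 (SE 0.14, limma adjusted p = 0.975).

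ACSS2, which makes acetyl-CoA from acetate, the main fuel that a sheep's rumen supplies once it works, did not pass with either probe. On the brighter probe (bases 698 to 757) the newborn levels were -0.82 to 0.50 with a median of -0.59, against fetal levels of -0.45 to 0.71 with a median of -0.22. On the other (bases 668 to 727) they were -1.82 to -0.73 with a median of -1.47 in newborn ventricle, against -1.58 to -0.34 with a median of -1.15 in fetal ventricle. Newborn 6 was the highest newborn array and fetal 2 the highest fetal array on both, and the groups overlapped. The changes were -0.29 (SE 0.22, 95% interval -0.77 to 0.19, limma adjusted p = 0.363) and -0.34 (SE 0.19, 95% interval -0.75 to 0.07, limma adjusted p = 0.212).

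ME1, the cytosolic malic enzyme, which makes NADPH as it turns malate into pyruvate, did not pass over all 13 arrays, and this rested on 1 animal. Its newborn levels ran between -1.08 and 0.57 with a median of 0.28, against fetal levels of -0.65 to -0.07 with a median of -0.37. Apart from newborn 6, all newborn arrays (6 of 7) lay above every fetal array, while newborn 6 lay below every fetal array. The change was 0.48 (SE 0.23, 95% interval -0.01 to 0.97, limma adjusted p = 0.14). Without newborn 6 it was 0.68 (SE 0.14, limma adjusted p = 0.00248). Of the 13 cases with an array left out, ME1 passed in this 1 only, which removes the newborn value that ran against the change. That p-value is therefore no separate support for a change.

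SCD, the stearoyl-CoA desaturase, was higher in newborn ventricle and was the only one of the 10 probes whose groups did not overlap. Its newborn levels ran between -1.43 and -0.55 with a median of -1.10, against fetal levels of -2.63 to -1.44 with a median of -2.01. The lowest newborn array, newborn 7, and the highest fetal array, fetal 1, were close to each other. The means were -1.08 ± 0.31 in newborn and -2.09 ± 0.45 in fetal ventricle (SD, n = 7 and n = 6), a change of 1.00 (SE 0.20, 95% interval 0.59 to 1.42, limma adjusted p = 0.0034), or 2.01-fold higher. It passed in 13 of 13 cases with an array left out, with changes between 0.90 and 1.13. The size depended on the processing, since the change was 0.43 in the authors' deposited matrix (SE 0.10, limma adjusted p = 0.00753) and 0.60 with normexp on the median background of the array (SE 0.13, limma adjusted p = 0.00416).

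SQLE, squalene epoxidase, had the largest change of the 7 genes, on both of its probes. On the brighter probe (bases 2034 to 2093) the newborn levels ran between 1.31 and 3.51 with a median of 2.52, against fetal levels of 0.78 to 2.02 with a median of 1.37. Again 6 of 7 newborn arrays lay above every fetal array, newborn 3 was the highest, and newborn 6 lay close to the fetal median. The means were 2.56 ± 0.73 in newborn and 1.36 ± 0.46 in fetal ventricle (SD, n = 7 and n = 6), a change of 1.20 (SE 0.31, 95% interval 0.54 to 1.86, limma adjusted p = 0.0133), or 2.30-fold higher.

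On the SQLE probe at bases 1849 to 1908 the newborn levels were -0.29 to 1.96 with a median of 1.08, against fetal levels of -0.93 to 0.37 with a median of -0.19. The change was 1.26 (SE 0.32, limma adjusted p = 0.0119), or 2.40-fold higher, with the same newborn array inside the fetal range. The 2 SQLE probes, which share no base, ordered the arrays in nearly the same way, since their difference had an SD of 0.127 over the 13 arrays. The spread of SQLE between animals of a group was therefore seen by both probes. The changes passed in 13 of 13 cases with an array left out, at 1.04 to 1.41 on the brighter probe and 1.11 to 1.48 on the other.

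**Figure D2:**
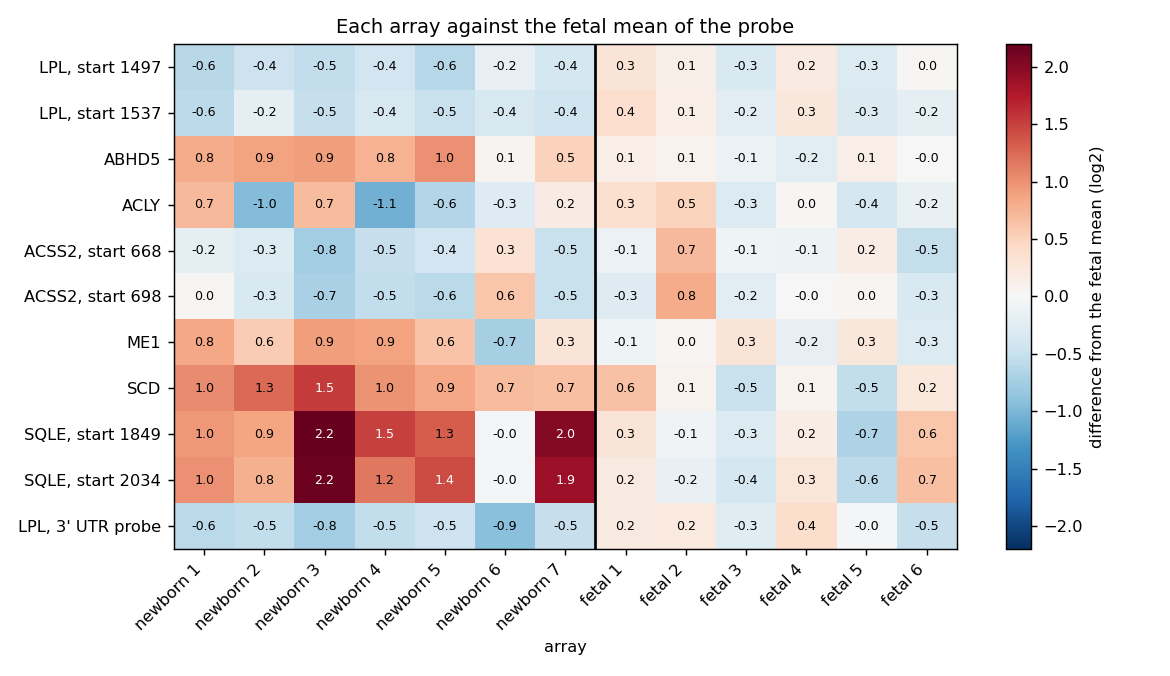
Each array's level minus the fetal mean of the same probe (log2, colour and printed value), with the 7 newborn arrays left of the black line and the 6 fetal arrays right of it. Newborn 6 stands apart from the other newborn arrays for ABHD5, ME1, SQLE and ACSS2, and newborn 3 and newborn 7 hold the highest SQLE values.

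Newborn 6 stood apart from its group beyond these enzymes. On the first principal component of all tested probes, which held 36.8% of the variance, it lay at -8.997, against 10.08 to 35.1 for the other newborn arrays and -29.1 to -20.4 for the fetal arrays. It lay inside the fetal range for 1002 of the 2366 probes that passed (42.4%), against 7.57% to 24.5% for each other newborn array. Among the 6 passing probes of these enzymes it lay inside the fetal range for 4. Newborn 2 did so for 1, and the other newborn arrays for 0.

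Without newborn 6 the number of probes that passed over the whole array was 3116, and 7 of the 10 enzyme probes passed, the added one being ME1. The changes were then 0.82 for ABHD5 (limma adjusted p = 1.6e-04), 1.06 for SCD (limma adjusted p = 0.00197) and 1.41 for the brighter SQLE probe (limma adjusted p = 0.00141). LPL changed by -0.51 on its brighter probe (limma adjusted p = 0.00636). ACSS2 stayed short of the threshold at -0.44 and -0.45 (limma adjusted p = 0.0926 and 0.063).

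The arrays lay on 2 slides, and both held animals of each group, 3 newborn and 4 fetal on slide 1 and 4 newborn and 2 fetal on slide 2. Within slide 1 and within slide 2, SQLE changed by 1.34 and 1.07 on its brighter probe, SCD by 1.20 and 0.95, and ABHD5 by 0.91 and 0.52. LPL changed by -0.60 and -0.27 on its brighter probe and by -0.56 and -0.14 on the other. For ME1 the values were 0.76 and 0.29, for ACLY 0.013 and -0.18, and for the brighter ACSS2 probe -0.41 and -0.10. ABHD5, ME1 and SCD passed within slide 1, and none of the 10 probes passed within slide 2, where 23 probes of the whole array did. Newborn 6 lay on slide 2.

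**Figure D3:**
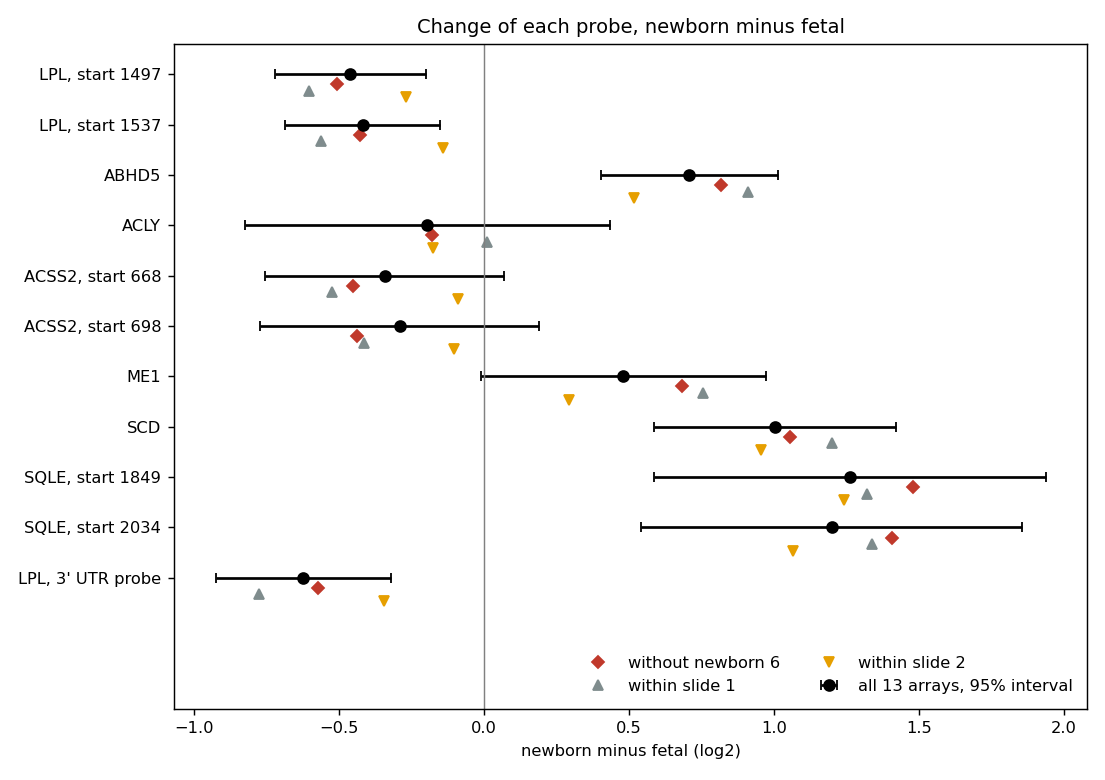
Change of each probe, newborn minus fetal (log2), over all 13 arrays with its 95% interval (black), without newborn 6 (red diamond), within slide 1 (grey triangle) and within slide 2 (orange triangle). Every value for ABHD5, ME1, SCD and SQLE lies above 0 and every value for LPL below it, with the slide 2 values the closest to 0 for each of these genes.

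Other genes of the same routes were drawn from 7 lists of 150 genes, of which 23 had a named probe on the array and 20 were tested. Of the 20, 7 rose and 1 fell, and their median change was 0.33. Over the 622 named genes 86 rose and 59 fell, with a median change of 0.09. Leaving out the enzymes above, 4 of 13 rose in limma and 0 fell. The lists were chosen with earlier results of these data known, so the counts are no test of the routes. These 13 are few of the genes of each route, so the counts describe what the array holds and not the routes as a whole.

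Among genes of triglyceride hydrolysis and the lipid droplet, PLIN5 was higher in newborn ventricle. It is the droplet coat protein of heart and other oxidative tissues, which holds droplets close to mitochondria. Its brighter probe ran between -1.58 and -1.03 on newborn arrays, against -2.26 to -1.47 on fetal arrays, a change of 0.44 (SE 0.13, limma adjusted p = 0.0296), and its other probe changed by 0.42 (limma adjusted p = 0.0393). The coat protein PLIN2 did not pass at 0.50 (SE 0.27, limma adjusted p = 0.2), with newborn 1 the highest array at -0.29 against a newborn median of -1.72. The lysosomal lipase LIPA was at 0.30 (limma adjusted p = 0.109) and the adipocyte coat protein PLIN1 at 0.11 (limma adjusted p = 0.55). PLIN3 was not well above background on any array.

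Among the genes listed under NADPH supply, MTHFD2 and IDH1 rose. The arrays do not show which cofactor an enzyme uses, and a part of MTHFD2 in NADPH supply was not tested. MTHFD2, the mitochondrial folate enzyme that oxidises methylene-tetrahydrofolate, ran between -2.42 and -1.14 on newborn arrays, against -3.29 to -2.61 on fetal arrays. It changed by 1.01 (SE 0.19, limma adjusted p = 0.00257), with no overlap of the groups, and by 1.00 on its other probe (limma adjusted p = 0.0185). IDH1, the cytosolic isocitrate dehydrogenase, ran between 3.24 and 4.38 on newborn arrays, against 2.13 to 3.997 on fetal arrays, where fetal 6 was the highest. It changed by 0.96 (SE 0.26, limma adjusted p = 0.0177). PGD, an enzyme of the pentose phosphate pathway, did not pass at 0.01 (SE 0.09, limma adjusted p = 0.953).

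Among genes of fatty acid synthesis, elongation and desaturation, HACD1, a dehydratase of the elongation cycle known from muscle, rose with SCD. Its brighter probe changed by 0.41 (SE 0.12, limma adjusted p = 0.025), while its other probe did not pass at 0.46 (limma adjusted p = 0.0612). The other desaturase on the array, SCD5, did not pass and lay on the opposite side of 0 from SCD, at -0.52 (SE 0.21, limma adjusted p = 0.078). FASN, the fatty acid synthase, was dim. It was well above background on 5 of 7 newborn and 2 of 6 fetal arrays, with a change of 0.37 (SE 0.23, limma adjusted p = 0.254). ACACA, the acetyl-CoA carboxylase that feeds it, was not well above background on any array with either of its probes.

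For triglyceride assembly only DGAT1, which adds the last fatty acid, was tested, at 0.23 (SE 0.14, limma adjusted p = 0.251). Among genes of sterol synthesis and its feedback SQLE alone passed of 3 tested. TM7SF2, a sterol reductase later on the route, was at 0.17 (SE 0.22, limma adjusted p = 0.613), and NPC2, which carries cholesterol out of lysosomes, was at -0.29 (SE 0.17, limma adjusted p = 0.213). From the list of regulators of LPL, FURIN, a protease that cleaves proproteins, was not well above background on any array.

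**Figure D4:**
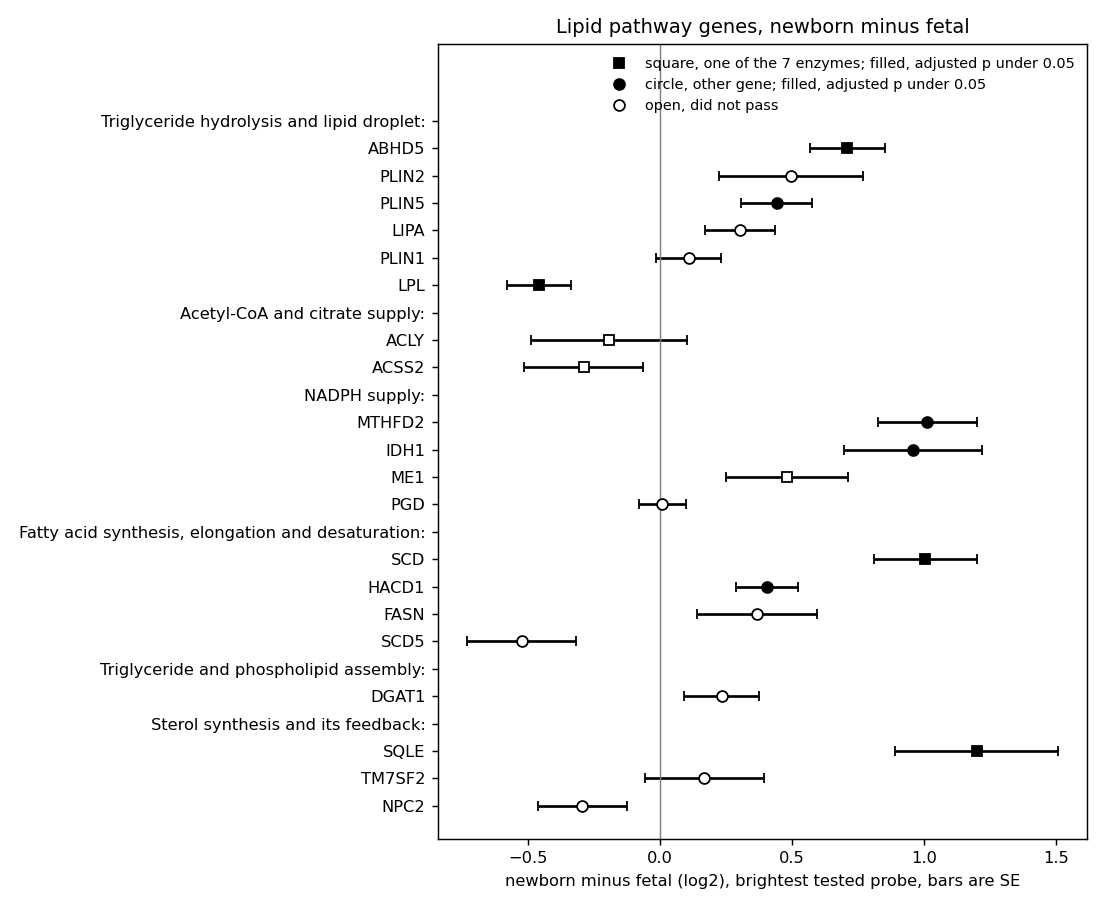
Change of the 20 tested genes of the lipid lists, newborn minus fetal (log2, bars are SE), by the brightest tested probe. Squares are the 7 enzymes described here, circles the 13 other genes, and filled symbols passed at an adjusted p under 0.05. LPL is the only filled symbol left of 0.

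Markers of the cells that a piece of ventricle can hold were read on the same arrays, as sums of linear signals in units of the 75th percentile. Of 15 listed cardiomyocyte genes only the oxygen store MB was on the array, and 1 gene alone does not settle the tissue label. MB was bright on all 13 arrays, at 8.02 to 9.12 in newborn and 8.74 to 9.20 in fetal ventricle (change -0.34, limma adjusted p = 0.139). Of 5 adipocyte markers other than LPL, FABP4 and UCP1 were each well above background on 1 newborn array and on no fetal array. LEP, PLIN1 and PPARG were well above background on all 7 newborn and all 6 fetal arrays. The sum of these 5 was 0.89 to 1.34 in newborn and 1.08 to 1.54 in fetal ventricle. PPARG, a regulator of fat storage, fell by 0.54 (limma adjusted p = 0.0386), and LEP and PLIN1 did not pass.

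Several marker lists moved with LPL, those of T cells and erythroid cells by more than it did. Both tested T-cell genes fell, with changes of -2.07 for CD3E and -1.63 for CD3D (limma adjusted p = 0.00228 and 0.00184), and the sum of the 3 on the array was 0.053 to 0.169 in newborn and 0.223 to 0.602 in fetal ventricle. Both tested erythroid genes fell too, with changes of -1.53 for the globin HBB and -1.73 for the globin chaperone AHSP (limma adjusted p = 0.00616 and 0.0447), with a sum of 25.4 to 68.6 in newborn and 53.7 to 258.2 in fetal ventricle. CD3D and AHSP were dim, each well above background on 2 of 7 newborn and 5 of 6 fetal arrays, so the size of their changes is uncertain. CD3E was well above background on 5 of 7 newborn and all 6 fetal arrays, and HBB on every array. Of the endothelial markers, 2 of 3 tested were also lower. PECAM1 and KDR fell by 0.51 and 0.46 (limma adjusted p = 0.00869 and 0.0233), while TIE1 did not pass at -0.09 (limma adjusted p = 0.671). FLT1 was well above background on 0 newborn and 2 fetal arrays and was not tested. The sum of the 4 on the array was 3.94 to 6.50 in newborn and 5.68 to 7.25 in fetal ventricle. Markers of macrophages and of smooth muscle moved with ABHD5, SCD and SQLE. The macrophage sum was 0.97 to 2.11 in newborn and 0.73 to 1.07 in fetal ventricle, and 2 of 3 tested, FCER1G and CD14, rose. The only smooth muscle marker, CNN1, was 9.81 to 84.0 in newborn and 3.63 to 7.17 in fetal ventricle. The fibroblast sum was 28.6 to 74.8 in newborn and 43.7 to 64.8 in fetal ventricle, and 1 of 3 tested, COL3A1, fell by 0.37 (limma adjusted p = 0.047), while DCN and COL1A2 did not pass. The part of any of these cells in the changes of the enzymes was not tested.

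The genes most like each enzyme were taken by Pearson's correlation of levels over the 13 arrays, among 615 named genes that are none of the 7. All points share the arrays, and the difference between the groups adds to every such value, so the correlation of deviations from the group means is given too. Both are descriptions. SQLE was most like DDOST, a subunit of the oligosaccharyltransferase of the endoplasmic reticulum, with r = 0.958 and 0.929 within the groups. Next were PPIA, the prolyl isomerase cyclophilin A, at 0.919 and 0.831, and EEF1E1, a cofactor of the aminoacyl-tRNA synthetase complex, at 0.917 and 0.843.

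SCD was most like MTHFD2, at 0.885 and 0.636 within the groups, followed by the pyridoxal kinase gene PDXK at 0.871 and 0.535 and the inhibin subunit gene INHA at 0.855 and 0.430. For ABHD5 they were PSPH, the last enzyme of serine synthesis, at 0.915 and 0.706 within the groups, the myosin light chain gene MYL6 at 0.898 and 0.649, and the immunoproteasome subunit gene PSMB8 at 0.894 and 0.637. LPL was most like NFKBIA, the inhibitor of NF-kappa-B, at 0.889 and 0.708 within the groups. The matrix metalloproteinase gene MMP2 followed at 0.872 and 0.663, and the galactosyltransferase gene GGTA1 at 0.852 and 0.605. Each of these genes, and each of the 3 most like SQLE, passed in limma in the direction of the enzyme it is most like.

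Among the enzymes whose change did not pass, ME1 was most like ARPC5L, a subunit of the actin-nucleating complex, at 0.901 and 0.867 within the groups, then the histone gene H2AZ1 at 0.855 and 0.813 and the DNA methyltransferase gene DNMT1 at 0.839 and 0.791. ACSS2 was most like the dynein light chain gene DYNLT3, at 0.825 and 0.809, then CYP2J at 0.796 and 0.806 and the connexin gene GJA4 at 0.775 and 0.763. ACLY was most like the angiogenic factor gene AGGF1, at 0.804 and 0.820, then the kinase gene CSNK1E at 0.671 and 0.688 and the metalloproteinase inhibitor gene TIMP3 at 0.649 and 0.723.

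Sex was in the labels of every animal. With age in the model, 0 of the 10 probes differed between females and males, and limma passed 1 of 10257 probes over the whole array, 331 having an unadjusted p under 0.05. The change between newborn and fetal ventricle differed between the sexes for 0 of the 10 probes and for 0 probes of the whole array, although 507 had an unadjusted p under 0.05. SCD changed by 0.73 in females and 1.24 in males, a difference of -0.51 (SE 0.41, limma adjusted p = 0.987). ME1 changed by 0.79 in females and 0.18 in males, a difference of 0.61 (SE 0.48, limma adjusted p = 0.987), and newborn 6 is one of the 3 newborn males. Only 2 of the fetal animals were female.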

How the data were processed

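Per the labels' protocols, RNA of frozen left ventricle carried Cy3 (the label field says Cy5). A single green channel was deposited, so the arrays were read as 1-colour. Per the file headers, the deposited spot intensity values come from Agilent Feature Extraction 10.1.1.1, and the processed signal is background-subtracted and detrended within the array. The deposited series matrix was read, from its values, as log2 signals of 7041 probes, with normalization not stated. It served as an alternative only.

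Log2 processed signals, scaled by each array's 75th percentile, were tested with lmFit and eBayes of limma 3.58.1 (R 4.3.3, with version 1.17.8 of data.table), two-sided. Controls and outlier-marked spots were removed and a probe's spots averaged. Probes well above background on at least 6 arrays were tested. Names came from the files and RefSeq genes of assembly ARS-UI_Ramb_v3.0, through which 1361 probes had 1 gene name, 210 kept the file's name, and 13415 had none. A gene was represented by its brightest tested probe.

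The enzymes, lists and tests were chosen with earlier results of these data known. Named genes are the 7 enzymes, every pathway-list gene that passed, up to 4 more of each such list by smallest p, and the 3 genes most like each enzyme. Of the listed genes, 2 are not reported here and were left out of the counts. Alternatives were background correction, normalization, filters, slide, sex, replicate and animal number, the variance model and each array left out. The steps were tested on simulated data. The labels give 9 animals 4 shared numbers under different letters. The number of arrays limits the precision. Plots used matplotlib 3.10.9, numpy 2.4.6 and pandas 2.3.3 under Python 3.11.15.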

Additional observations from a re-analysis of the deposited data

Results flagged for a closer look

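ME1 on newborn 6 was at -1.08, far below the other newborn arrays. Its gap to the nearest of them was 0.622 of the range of the group, against a critical value of 0.568 for 7 samples. The brighter ACSS2 probe on fetal 2 was at 0.71, far above the other fetal arrays, with a gap of 0.664 of the range against a critical value of 0.625 for 6 samples. Chance flags about 1 in 20 groups, and each of the 10 probes was examined in both groups.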

How the results depend on the processing

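With normexp on the background of each spot 48 probes of the array and 0 of the 10 enzyme probes passed (LPL -0.40, ABHD5 0.43, SCD 0.46, SQLE 1.15, by the brighter probe). Within slide 1, with 7 arrays, the counts were 356 and 3 (LPL -0.60 and SQLE 1.34 no longer passed, ME1 0.76 passed, ACLY turned to 0.013), and within slide 2, with 6 arrays, 23 and 0 (LPL -0.27, ABHD5 0.52, SCD 0.95, SQLE 1.07). With the animals that share a number averaged, chosen after seeing the data, 315 and 0 passed (LPL -0.47, ABHD5 0.65, SCD 1.01, SQLE 1.16), on 4 numbers a group. Fewer samples were fitted within slides and over numbers. For normexp the cause was not tested. With the replicate number as a block 1326 and 3 passed, and SQLE was at 1.08 (limma adjusted p = 0.0788). Animals with the same replicate number in both groups did not deviate together (correlations of -0.07 to 0.05). These values show no pairing by replicate number but cannot exclude one. Animals that share an animal number had correlations of -0.17 to 0.19, and with it as a random block (consensus correlation 0.178) the calls on the brighter probes were kept. Leaving out single arrays moved ME1 between 0.41 and 0.68. In the other alternatives run, LPL, ABHD5, SCD and SQLE kept their direction and their call on the brighter probe, while in the deposited matrix SCD was at 0.43 and ABHD5 at 0.42, and with normexp on the array's median background SCD was at 0.60. The counts of pathway genes and of probes that differ by sex stayed within 1.5 times or at 0. Dim probes such as FASN limit what can be said of synthesis.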
